A study of Homo sapiens with 16 samples.

Results

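Iron storage and heme handling were examined through 8 genes: FTL, FTH1, SLC40A1, TFRC, FECH, ABCB6, SLC48A1 and BLVRB. Peaks were assigned to a gene when they overlapped its RefSeq gene body (GRCh38.p14) with 10 kb on either side. All 8 were found among 20037 protein-coding genes on the chromosomes used. The peaks come from CUT&RUN, in which an antibody tethers a nuclease and the DNA cut free around the antibody is sequenced, in WM164, a human melanoma cell line. The cells overexpressed either GFP ("GFP cells") or MAFG ("MAFG cells"), a small MAF transcription factor. Each was profiled with anti-MAFG (3 libraries), anti-MITF (3 libraries), anti-H3K4me3 (1 library) and anti-rabbit IgG (1 library, not analysed here). The labels do not say whether replicates were separate cultures, how the genes were delivered, or whether a line is a single clone.

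Cells keep iron in ferritin, a shell built from the heavy chain FTH1, which oxidises iron, and the light chain FTL, which helps to form the mineral core. Iron enters on transferrin through the receptor TFRC and leaves through the exporter SLC40A1 (ferroportin). FECH (ferrochelatase) inserts iron into protoporphyrin to make heme, and ABCB6 transports porphyrins. SLC48A1 moves heme out of endosomes and lysosomes, and BLVRB is a biliverdin reductase. Small MAF proteins have no activation domain and pair with partners such as NRF2 or BACH1 at antioxidant response elements, where ferritin and heme oxygenase genes are textbook targets. MITF is the lineage regulator of pigment cells and binds E-boxes.

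The lists were of very different length, and this bears on every comparison between the lines. Anti-MAFG lists held 14879 to 26221 peaks in GFP cells and 1836 to 2818 in MAFG cells, anti-MITF lists held 19828 to 20117 and 2116 to 2495, and H3K4me3 lists held 13580 and 11582. Read totals are not in the peak lists, so depth and cell line cannot be told apart in these counts. Within groups, pairs of libraries shared 33.3% to 44.9% of the base pairs covered. Chromosome 19, which carries FTL and BLVRB, held only 0.370% to 0.887% of anti-MAFG peaks, against 1.65% to 2.15% of anti-MITF peaks and 6.98% and 7.09% of H3K4me3 peaks. Of 6 melanocyte genes, MITF and TYR carried H3K4me3 over the start site in both lines, MLANA and DCT did not, and SOX10 and PMEL had no start site in the RefSeq promoter table.

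The promoters that anti-MAFG peaks touched are shown first. RefSeq promoter sequences (GRCh38.p14, 250 bases before to 50 after the start site) were matched for 7 of the 8 genes, all but FTH1. The 3 printed are those that an anti-MAFG peak overlapped, read 5′ to 3′ on the gene's strand, with capitals marking motif matches. They lie at chr2:219218909-219219208, chr18:57586653-57586952 and chr19:40465696-40465995, all on the minus strand.
ABCB6: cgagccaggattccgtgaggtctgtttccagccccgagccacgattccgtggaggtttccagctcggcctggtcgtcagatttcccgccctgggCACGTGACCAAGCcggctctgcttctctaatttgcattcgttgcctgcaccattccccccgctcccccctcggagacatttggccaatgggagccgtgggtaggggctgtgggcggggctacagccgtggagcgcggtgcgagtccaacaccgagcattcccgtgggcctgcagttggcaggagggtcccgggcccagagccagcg
FECH: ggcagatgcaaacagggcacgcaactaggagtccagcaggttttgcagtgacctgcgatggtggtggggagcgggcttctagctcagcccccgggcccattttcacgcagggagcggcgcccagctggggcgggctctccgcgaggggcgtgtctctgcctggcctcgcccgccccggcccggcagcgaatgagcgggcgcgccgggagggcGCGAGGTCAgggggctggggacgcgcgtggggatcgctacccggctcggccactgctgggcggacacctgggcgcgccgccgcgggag
BLVRB: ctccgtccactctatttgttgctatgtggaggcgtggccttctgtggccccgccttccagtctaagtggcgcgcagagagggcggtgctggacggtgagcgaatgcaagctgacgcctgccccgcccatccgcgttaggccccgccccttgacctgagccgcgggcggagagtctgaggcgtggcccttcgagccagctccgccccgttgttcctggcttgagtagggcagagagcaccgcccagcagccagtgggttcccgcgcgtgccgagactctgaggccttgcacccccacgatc
Both strands were searched for TGACNNNGC, the core of the antioxidant response element, for TGANTCA, the core shared by MAF and AP-1 sites, and for CACGTG, the E-box bound by MITF and its relatives. In ABCB6 the capitals are CACGTG, 156 bases before the start site, running into a TGACNNNGC match that shares its last 2 letters. In FECH they are a TGACNNNGC match on the opposite strand, 38 bases before the start site. BLVRB held none of the 3, and neither did FTL, TFRC, SLC40A1 or SLC48A1. Of 15843 protein-coding promoters of the same length, 14.3% held TGACNNNGC, 5.75% TGANTCA and 8.88% CACGTG, so 2, 0 and 1 of 7 members are counts too small to set apart from these shares.

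Counts of the genes with a reproducible peak come first. A consensus region, called in at least 2 of the 3 libraries of a group, lay within 10 kb of 2 of 8 genes with anti-MAFG in GFP cells (ABCB6 and SLC48A1) and of 2 of 8 in MAFG cells (ABCB6 and FTH1). With anti-MITF it lay within 10 kb of 7 of 8 genes in GFP cells, all but SLC40A1, and of 1 of 8 in MAFG cells, FTH1. With the 1836 best peaks by fold of every library, the GFP-cell counts were 0 with anti-MAFG and 3 with anti-MITF, and without GFP-cell anti-MAFG replicate 1, or without replicate 2, the anti-MAFG count there was 1. The shares of all protein-coding genes meeting the same rule were 37.4% and 5.07% with anti-MAFG, GFP cells first, and 46.7% and 8.2% with anti-MITF. Among the 6525 genes with H3K4me3 over the start site in both lines, they were 51.1% and 7.28% with anti-MAFG, then 69.7% and 13.1% with anti-MITF. The median window of the members was 39087 bp and that of all protein-coding genes 44115 bp. With 8 genes chosen when earlier results were known, these counts are a description.

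**Figure D1:**
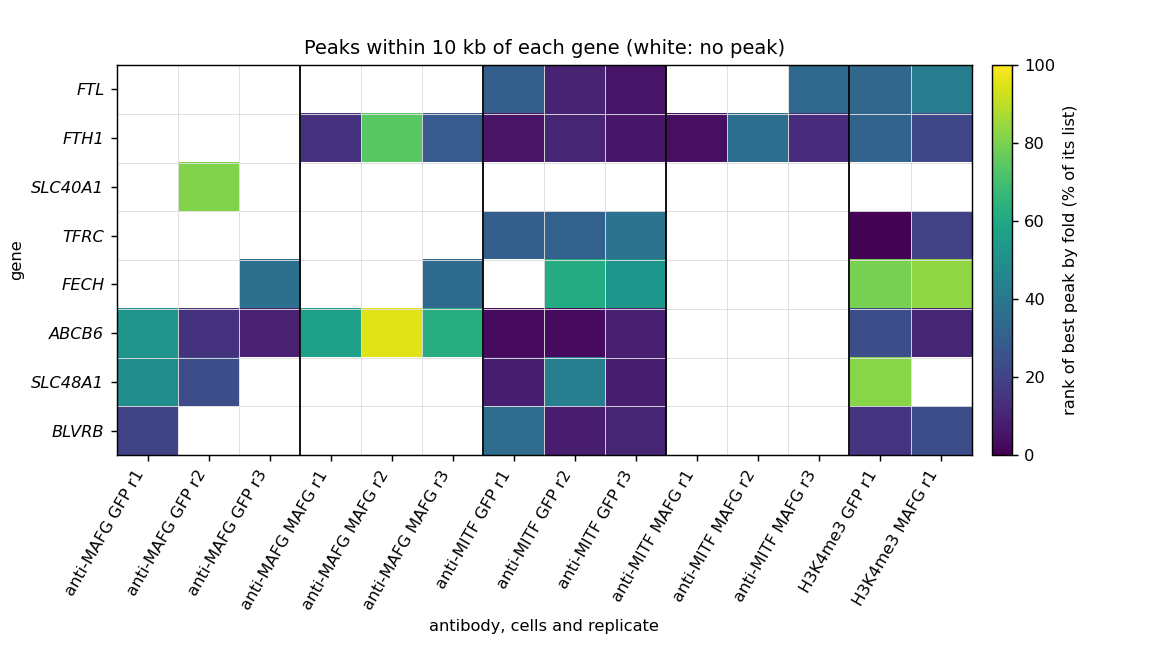
Each cell is 1 gene (rows) in 1 library (columns, grouped by antibody and cells); colour gives the rank of the gene's best peak by the authors' fold as a percent of its own list, and white means no peak within 10 kb. FTH1 has anti-MAFG peaks in the 3 MAFG-cell libraries and none in GFP cells, ABCB6 has anti-MAFG peaks in all 6 libraries, and SLC40A1 has 1 peak in all; neighbouring genes' peaks inside a window are included.

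**Figure D2:**
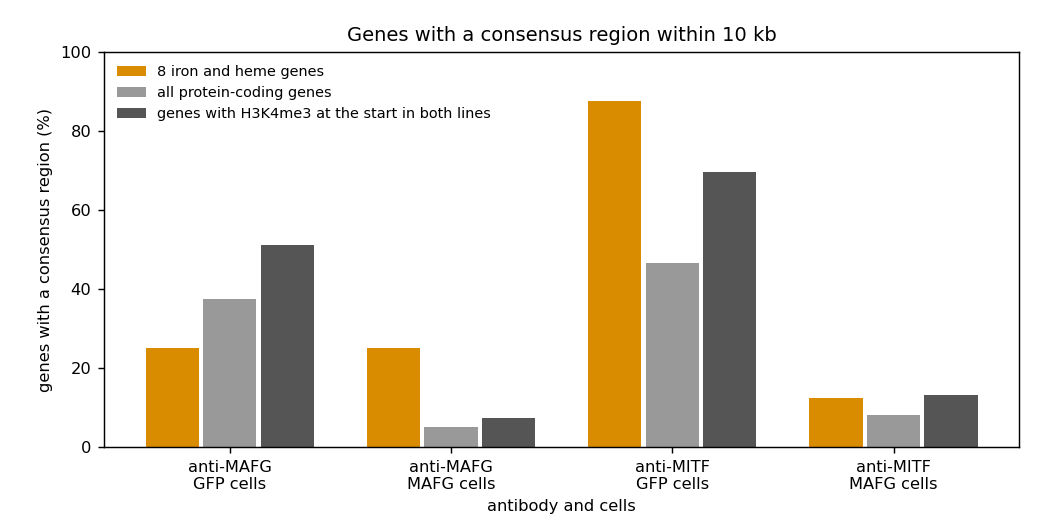
Bars give the percent of genes with a consensus region within 10 kb, for the 8 iron and heme genes, all protein-coding genes, and genes with H3K4me3 over the start in both lines. For the 8 genes the anti-MITF share is 87.5% in GFP cells and 12.5% in MAFG cells, and the anti-MAFG share is 25.0% in both.

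FTH1, the ferritin heavy chain, was the member whose anti-MAFG peaks were found in MAFG cells and not in GFP cells. The gene lies on chromosome 11 from 61964285 to 61967634, and the region ran from 61972112 to 61972694, outside any RefSeq gene, on the side from which FTH1 is transcribed. An antioxidant response element upstream of FTH1 is well known from work on NRF2. Whether this region holds that element was not tested, since no sequence of the region was available. The authors' fold enrichment, a linear ratio over background, was 10.9 in MAFG-cell replicate 1, 5.76 in replicate 2 and 8.71 in replicate 3. These peaks ranked 260 of 1836, 1377 of 1849 and 815 of 2818 by fold in their lists. None of the 3 GFP-cell anti-MAFG lists, although at least 14879 peaks long, held a peak within 10 kb of FTH1.

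This pattern, 3 of 3 MAFG-cell and 0 of 3 GFP-cell libraries, was met by 0.348% of the 34223 merged anti-MAFG regions (119 regions), and the region near FTH1 was the only 1 of 8 at the members. Fisher's exact test (two-sided) gave p = 0.1, the smallest that 3 libraries against 3 allow, and a Benjamini-Hochberg adjusted p of 0.395 over all merged regions. Replicate 2 was the weakest, with a −log10 q of 4.08 against 13.6 and 9.90, and with a minimum of 5 the call was lost. The opposite pattern, called in 3 of 3 GFP-cell and 0 of 3 MAFG-cell libraries, was met by 25.0% of merged anti-MAFG regions and by none of the 8 at the members. Without GFP-cell replicate 3, the shortest anti-MAFG list of GFP cells, it was met by 2 of them, at SLC48A1 and at the ZFAND2B end of the ABCB6 window.

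Anti-MITF peaks lay at the same place upstream of FTH1 in MAFG cells. Their folds were 12.3, 7.50 and 9.49 in replicates 1 to 3, with ranks of 104 of 2491, 765 of 2116 and 311 of 2495. The summits of the best peaks lay on average at 61972326 ± 62.7 bp (SD, n = 3), 23 bp from the anti-MAFG mean of 61972303 ± 76.0 bp (SD, n = 3), and their ranges overlapped. How often summits lie this close over all regions shared by both antibodies was not counted. This anti-MITF region was the only consensus one at the members in MAFG cells, and it overlapped the anti-MAFG one, against 13.5% of all 2019 anti-MITF consensus regions of MAFG cells. From the other side, 1 of 2 anti-MAFG consensus regions at the members overlapped an anti-MITF one, against 15.7% of 1748.

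In GFP cells the strongest anti-MITF signal near FTH1 was at another position. The best peaks had folds of 13.1, 10.4 and 12.2 (ranks 1047 of 19828, 2109 of 20117 and 1181 of 20102), with summits at 61971710 ± 32.0 bp (SD, n = 3). That is 616 bp closer to the gene than the mean in MAFG cells. Of the GFP-cell libraries, replicate 1 had a separate peak over the outer position (summit 61972297, fold 7.15), and the peaks of replicates 2 and 3 reached across it. Of the MAFG-cell libraries, replicate 2 alone had a peak at the inner position (summit 61971688, fold 6.66). The best summits of the lines did not overlap, as in 11.8% of the 1146 anti-MITF regions called in all 6 libraries (3.84% of 29820 merged regions), and 1.92% of them had a shift this large. H3K4me3 had a weak peak at the inner position in GFP cells (61971325 to 61971777, fold 3.93, rank 13415 of 13580) and none there in MAFG cells.

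**Figure D3:**
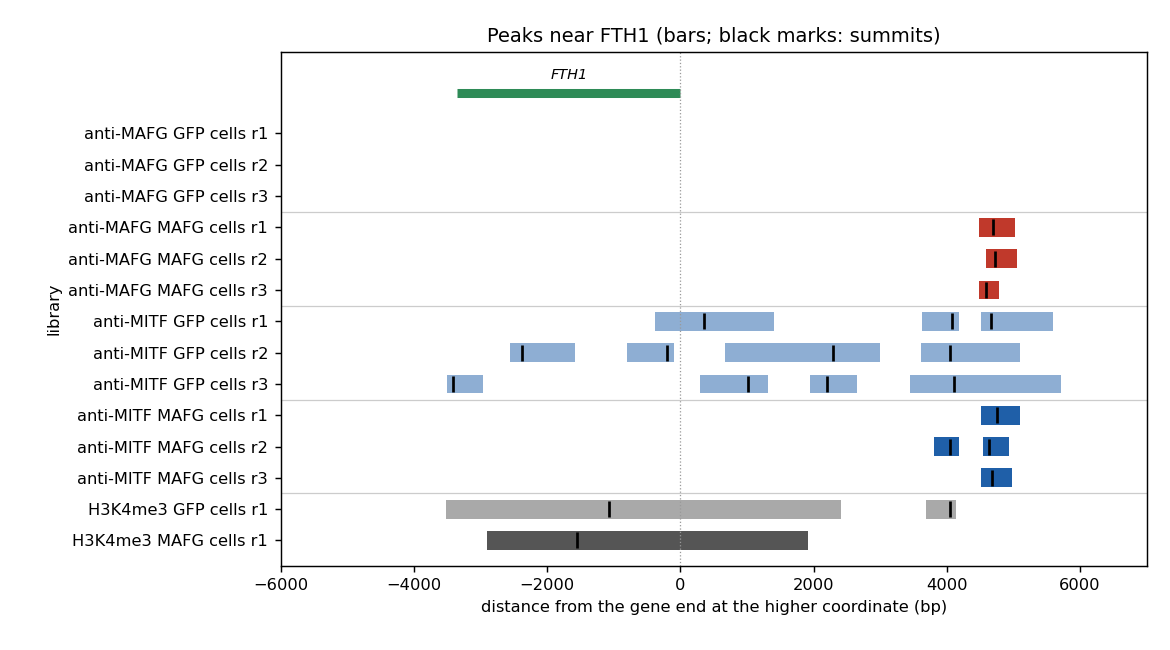
Peaks near FTH1 in the 14 libraries (rows), as bars against distance in bp from the gene end at the higher coordinate, with summits as black marks and the gene in green; paler bars are GFP cells. The anti-MAFG summits of MAFG cells lie 4583 to 4726 bp from the gene end, beside the best anti-MITF summits of MAFG cells at 4639 to 4761 bp, whereas the best GFP-cell anti-MITF summits lie at 4043 to 4107 bp.

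Over the start of FTH1 and just upstream, anti-MITF peaks were called in GFP cells only. The merged region from 61966830 to 61970629 was called in 3 of 3 GFP-cell and 0 of 3 MAFG-cell libraries, with best folds of 7.46, 6.26 and 7.93 and with summits spread over 1945 bp. The H3K4me3 peak across the gene was the broadest of the set, 5930 bp in GFP cells (fold 42.1) and 4818 bp in MAFG cells (fold 25.1). The median fold of the whole H3K4me3 list was 28.3 in GFP cells and 15.3 in MAFG cells. FTH1 overlaps BEST1 at its far end and the non-coding LOC399900 at its start. The RefSeq table lists 27 FTH1 and 20 FTL pseudogenes, and how reads with several matches were placed is not given in the sources used here, so signal inside these 2 genes is less certain than signal upstream.

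FTL, the ferritin light chain on chromosome 19 from 48965309 to 48966879, had anti-MITF but no anti-MAFG peaks. In GFP cells the anti-MITF folds at its start were 7.92, 10.5 and 12.5, with ranks of 5967 of 19828, 1997 of 20117 and 1108 of 20102, and the summits lay 182 to 299 bp into the gene. In MAFG cells replicate 3 alone had a peak there, with a fold of 7.44 (rank 854 of 2495, summit 108 bp into the gene). None of the 6 anti-MAFG lists had a peak within 10 kb. On chromosome 19 as a whole, 6.82% of 1451 protein-coding genes had an anti-MAFG consensus region within 10 kb in GFP cells and 0.965% in MAFG cells, under the shares for all chromosomes given above; its part in the result at FTL was not tested.

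TFRC, the transferrin receptor on chromosome 3 from 196049284 to 196082090, also had anti-MITF but no anti-MAFG peaks. The GFP-cell folds at its start were 7.92, 7.21 and 6.92 (ranks 5967 of 19828, 6214 of 20117 and 7649 of 20102), within a narrow range, and no MAFG-cell library had a peak. Its H3K4me3 peak was among the strongest in GFP cells, with a fold of 123 and rank 65 of 13580. In MAFG cells the H3K4me3 peak had a fold of 25.8 and rank 2290 of 11582. With 1 library per line, the median fold of all H3K4me3 peaks was 28.3 in GFP cells and 15.3 in MAFG cells.

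SLC40A1, the iron exporter on chromosome 2 from 189560590 to 189580786, was nearly without peaks. Among all 14 libraries there was 1 peak, with anti-MAFG in GFP-cell replicate 2 (189566239 to 189566642, fold 4.6, rank 18990 of 23409), 14436 bp into the gene. Neither line had H3K4me3 within 10 kb, so it was the only member without this mark in its window in GFP cells.

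ABCB6, the porphyrin transporter on chromosome 2 from 219209772 to 219218958, was the member with anti-MAFG peaks in all 6 libraries. The folds were 6.55, 9.18 and 9.29 in GFP cells (ranks 13638 of 26221, 3438 of 23409 and 1359 of 14879). They were 6.74, 4.55 and 6.42 in MAFG cells (best peak per library, ranks 1037 of 1836, 1758 of 1849 and 1756 of 2818). The merged region, from 219217440 to 219219013, is 1 of 612 called in all 6 libraries, 1.79% of the total. With a −log10 q of at least 5, ABCB6 kept 2 of 3 MAFG-cell libraries, and with equal peak numbers 1 of 3 GFP-cell libraries, so the call in all 6 was lost under either. The summits lay just inside the gene, at 219218290 ± 84.6 bp in GFP cells and 219218212 ± 50.7 bp in MAFG cells (SD, n = 3 each), and their ranges overlapped.

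Anti-MITF at ABCB6 was called in GFP cells only. The folds were 14.9, 14.3 and 11, with ranks of 602 of 19828, 561 of 20117 and 1797 of 20102. No MAFG-cell anti-MITF library had a peak within 10 kb of ABCB6 (Fisher's exact test, p = 0.1, adjusted p 0.377). The anti-MITF summits averaged 219218684 ± 150 bp (SD, n = 3), 394 bp closer to the start site than the anti-MAFG summits of the same cells, and the ranges did not overlap. How often this holds over all regions shared by both antibodies was not counted, so the distance is a description of this region only. The E-box of the printed promoter lies within the anti-MITF peak of each GFP-cell library, upstream of all 3 summits. Neither it nor the TGACNNNGC match lies within an anti-MAFG peak of any library. The summits of anti-MAFG and of H3K4me3 (719 bp into the gene in GFP cells and 702 bp in MAFG cells) were close to each other.

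**Figure D4:**
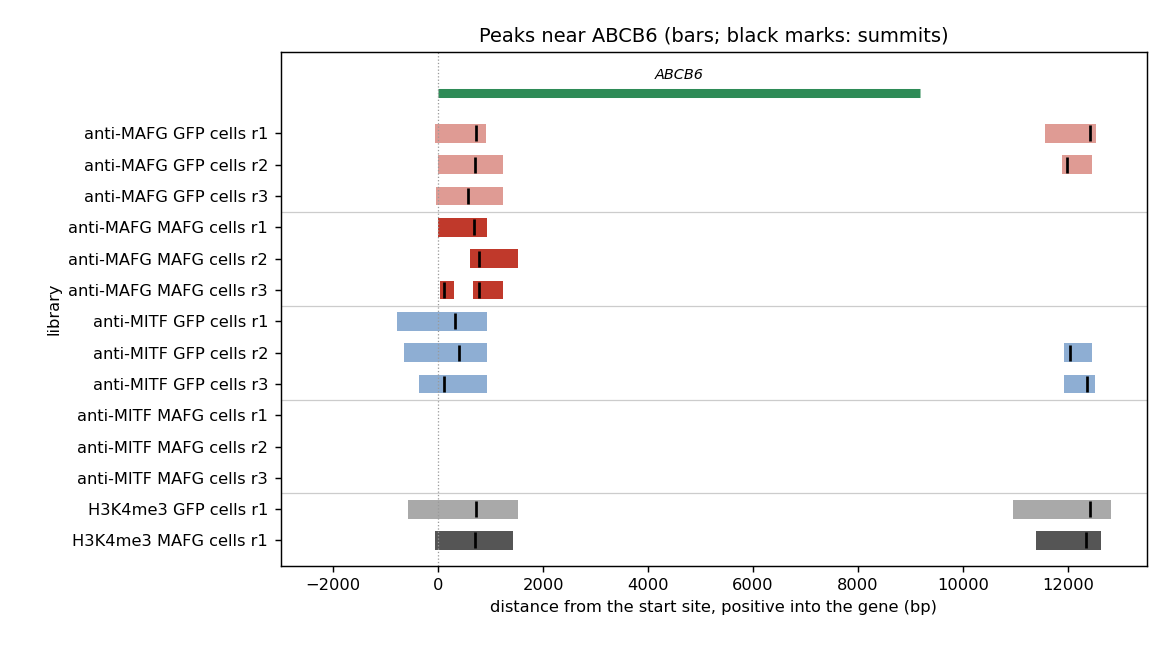
Peaks near ABCB6 in the 14 libraries (rows), as bars against distance in bp from the start site, positive into the gene, with summits as black marks; paler bars are GFP cells. Anti-MAFG peaks sit just inside the start site in all 6 libraries, anti-MITF peaks in the 3 GFP-cell libraries only, and a second group of peaks, with summits at 11978 to 12419 bp, lies beside ZFAND2B.

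The window of ABCB6 also holds the whole of ZFAND2B and most of ATG9A. A region at the ZFAND2B end, from 219206416 to 219207386, was called with anti-MAFG in 2 of 3 GFP-cell libraries (folds 4.66 and 5.82). Anti-MITF called it in 2 of 3 as well (folds 4.56 and 3.39), and neither antibody called it in MAFG cells.

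FECH, the last enzyme of heme synthesis on chromosome 18 from 57544377 to 57586702, had scattered calls. In GFP cells anti-MITF peaks lay within the gene, 11486 and 11454 bp from the start site, in replicates 2 and 3 (folds 5.46 and 6.09) and not in replicate 1. In MAFG cells anti-MAFG replicate 3 had a peak over the same position (57575150 to 57575625, fold 8.14, rank 981 of 2818), and replicates 1 and 2 had none. At the start site, anti-MAFG was called in GFP-cell replicate 3 only (57586598 to 57586980, fold 6.40, rank 5514 of 14879), with its summit 172 bp before the start site, inside the printed promoter and with the TGACNNNGC match inside the peak. With 1 of 3 libraries, neither anti-MAFG position met the rule for a consensus region.

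SLC48A1, the endosomal heme transporter on chromosome 12 from 47753934 to 47782751, had peaks in GFP cells only. Across the lower end of its gene body, which lies within RAPGEF3, anti-MAFG was called in replicates 1 and 2 (folds up to 6.71 and 7.88) and not in replicate 3. Anti-MITF was called there in 3 of 3 (folds 11.5, 5.90 and 11.1). The best summits of both antibodies lay in RAPGEF3 just outside SLC48A1, 19437 to 20039 bp from the SLC48A1 start site of the promoter table. A further anti-MITF region inside the gene, from 47777938 to 47779414, was called in 3 of 3 GFP-cell and 0 of 3 MAFG-cell libraries with low folds, the best being 3.99, 6.51 and 6.28. The best summits of these GFP-cell libraries were spread over 1179 bp. H3K4me3 did not overlap the inner region. It had a GFP-cell peak at the lower end of the gene body (47753780 to 47754703, fold 7.66) and another just inside the start site that the promoter table gives, at 47773238 (fold 8.57), and neither in MAFG cells.

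BLVRB, a biliverdin reductase on chromosome 19 from 40447768 to 40465745, had 1 anti-MAFG peak, in GFP-cell replicate 1 (40465260 to 40465819, fold 9.22, rank 5383 of 26221). Its summit lay 7 bp into the gene, within the printed promoter. Anti-MITF peaks shared this position in replicates 1 and 2 (folds 7.31 and 7.10, summits 6 bp into the gene and 7 bp before it). A stronger anti-MITF region near SERTAD3 in the same window, from 40443693 to 40445059, was called in replicates 2 and 3 (best folds 11.1 and 10.4). No MAFG-cell library of either factor had a peak near BLVRB.

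Over the whole set, anti-MITF regions called in 1 line only were all of GFP cells. Of 13 merged anti-MITF regions at the members, 5 were called in 3 of 3 GFP-cell and 0 of 3 MAFG-cell libraries (at FTH1, TFRC, ABCB6 and, with 2 regions, SLC48A1), against 26.5% of all 29820. The opposite pattern was met by none, against 0.0101% of all, and the merged region upstream of FTH1 was the 1 called in all 6 libraries. It joins the inner and outer positions described above, and the mean best summits of the lines lay 616 bp apart. With equal peak numbers, 1 anti-MITF region met the GFP-cell pattern, with summits within 250 bp 2 did, and without GFP-cell replicate 1, 8 did. With equal peak numbers the FTH1 region was called with anti-MAFG in 3 of 3 MAFG-cell and 0 of 3 GFP-cell libraries. Single regions cannot pass 0.05 in this design.

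In GFP cells the overlap of the antibodies differed by the side it was counted from. With 3 anti-MAFG consensus regions at the members, few anti-MITF ones could be overlapped. Of the 11 consensus regions of anti-MITF at the members, 3 overlapped an anti-MAFG one, against 59.1% of all 17346. All 3 anti-MAFG consensus regions at the members overlapped an anti-MITF one, against 54.1% of all 19194. These 3 were the ABCB6 start, the ZFAND2B end of its window and the lower end of SLC48A1. Without anti-MAFG replicate 1, or without replicate 2, 1 of them was left.

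H3K4me3, the mark of active promoters, was compared with 1 library per line and no test. A peak covered the start site in 5 of 7 members in GFP cells (53.1% of 15843 protein-coding genes) and in 4 of 7 in MAFG cells (41.6%). The lost member was FECH, whose MAFG-cell peak (57585734 to 57586582, fold 7.31) stopped short of the start site. With a summit within 1 kb of the start site as the rule, the counts were 6 and 5 of 7: FECH had the mark in both lines and SLC48A1 in GFP cells only. Peak widths in GFP and MAFG cells were 3302 and 2055 bp at TFRC, 2699 and 1540 bp at FTL, 2093 and 1479 bp at ABCB6, and 1537 and 1334 bp at BLVRB. Counting FTH1, all 5 genes with a peak in both lines had the narrower one in MAFG cells, as did 95.2% of 6525 genes. The median ratio of the MAFG-cell to the GFP-cell width was 0.707 for the 5 and 0.821 for all.

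**Figure D5:**
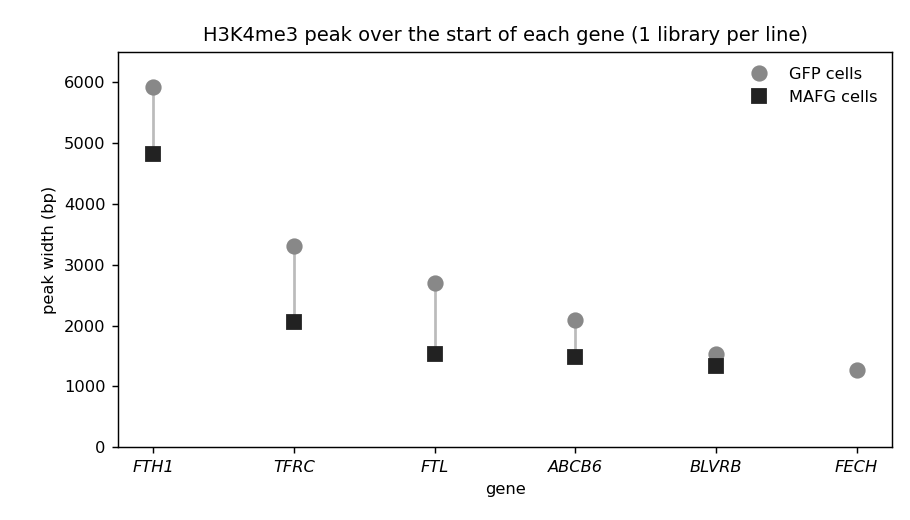
Width in bp of the H3K4me3 peak over the start of each gene (for FTH1, over the gene end at the higher coordinate), 1 library per line; circles are GFP cells and squares MAFG cells. The 5 genes with both values are narrower in MAFG cells, from 5930 to 4818 bp at FTH1 down to 1537 to 1334 bp at BLVRB, and FECH has a peak over the start in GFP cells only.

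Other genes of iron and heme metabolism were read the same way from a list of 35. Anti-MAFG consensus regions lay within 10 kb of 22 of 35 in GFP cells (62.9%, against 37.4% of all protein-coding genes) and 2 of 35 in MAFG cells (5.71%, against 5.07%). For anti-MITF they were 25 (71.4%, against 46.7%) and 9 (25.7%, against 8.2%). The heme synthesis genes had 9 of 11 with each antibody in GFP cells. In MAFG cells they had 1 with anti-MAFG and 2 with anti-MITF. The iron uptake, storage and export genes had 7 of 13 with anti-MAFG in GFP cells and 0 of 13 in MAFG cells, and 9 and 4 with anti-MITF. The iron sensing genes had 3 of 4 and 0 of 4 with anti-MAFG, and 3 and 1 with anti-MITF. The heme breakdown and transport genes had the lowest GFP-cell shares, 3 of 7 with anti-MAFG and 4 of 7 with anti-MITF, and in MAFG cells 1 and 2. These lists are short. In GFP cells H3K4me3 covered the start site in 21 of the 28 listed genes that have one, against 53.1% of all protein-coding genes. Among genes with H3K4me3 over the start site in both lines, the shares were 51.1% and 7.28% with anti-MAFG, GFP cells first. With anti-MITF they were 69.7% and 13.1%. Beside these, the list's 71.4% with anti-MITF in GFP cells was close. Its 62.9% with anti-MAFG in GFP cells and 25.7% with anti-MITF in MAFG cells were higher, and its 5.71% with anti-MAFG in MAFG cells was lower. The list is not limited to such genes, since in MAFG cells H3K4me3 covered the start site in 15 of the 28. The part of H3K4me3 in these shares was not tested.

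The 2 with anti-MAFG in MAFG cells were HMOX1 and SLC25A28. At HMOX1, heme oxygenase, the region from 35371214 to 35373188 on chromosome 22 was called in 3 of 3 MAFG-cell and 0 of 3 GFP-cell libraries, with folds of 16.2, 17.4 and 15.7 (ranks 58 of 1836, 29 of 1849 and 98 of 2818). A further region from 35374286 to 35377702 was called in 2 of 3 GFP-cell and 3 of 3 MAFG-cell libraries. Its best MAFG-cell folds were 12.5, 12 and 14.2, with ranks of 157 of 1836, 135 of 1849 and 156 of 2818. None of the 8 anti-MAFG peaks at the members in MAFG cells ranked in the best 10%. At SLC25A28, a mitochondrial iron importer, the region from 99630623 to 99631007 on chromosome 10 was called in MAFG-cell replicates 1 and 3 (folds 6.99 and 8.14) and in no GFP-cell library. Other anti-MAFG regions of its window went the opposite way. Those from 99620794 to 99621332 (folds 8.6, 7.95 and 9.6) and from 99658929 to 99659991 (folds 7.5, 4.17 and 5.65) were called in 3 of 3 GFP-cell and 0 of 3 MAFG-cell libraries. This pattern was met by 25.0% of merged anti-MAFG regions.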

How the data were processed

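Peak lists of 14 CUT&RUN libraries were analysed, 1 list per library. Per the submitters' processing notes, cutadapt 1.8.1, Bowtie2 2.4.1, MACS2 2.1.1.20160309, ChIPseeker 1.32.1 and deepTools were used with builds GRCh38 and hg38, with no role or order given. The settings and the control used are not given in the sources used here. Each deposited peak carries the authors' fold enrichment, a linear ratio, and the −log10 of its p-value and q-value. Replicates were not pooled, and the lists hold no read totals. Folds and ranks describe peaks within their own list, and no test compared them between lists of different length. Where values of both lines stand side by side, they are a description. The alternative with equal peak numbers used fold to cut each anti-MAFG and anti-MITF list to its 1836 best peaks.

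Gene bodies came from the RefSeq table of GRCh38.p14. Start sites and sequences came from its promoter table. Peaks on chromosomes 1 to 22, X and Y were used. Overlapping or touching peaks were merged over the 3 libraries of a group for consensus regions, and over the 6 libraries of an antibody to compare the lines. Overlap meant at least 1 bp. Fisher's exact test was run on every merged region with Benjamini-Hochberg adjustment over all of them. Python 3.11.15, pandas 2.3.3 and SciPy 1.17.1 were used. The p-values depend only on how many of the 3 libraries of each line held a call, and these libraries may be technical replicates.

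The members and lists were chosen with earlier results of these data known. All 8 members were named, and of the other list those with an anti-MAFG consensus region in MAFG cells. Alternatives were windows, thresholds, equal peak numbers, left-out replicates and a replicate block. The planned motif counts around summits were left out for lack of a genome of this build, and promoters were searched instead.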

Additional observations from a re-analysis of the deposited data

How the results depend on the processing

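Of 104 alternative values over 12 results, 83 stayed within 1.5 times the main count. The 83 include 4 from the replicate block, which could not differ from the main counts. Counts here are small, and 1 gene or region moves them. For members with a consensus region, the main counts of 2 (anti-MAFG, GFP cells), 2 (anti-MAFG, MAFG cells), 7 (anti-MITF, GFP cells) and 1 (anti-MITF, MAFG cells) changed as follows. Around the start site (5 kb) they were 1, 1, 5 and 0 in the same order, and with the nearest start site 1, 1, 6 and 0. FTH1 has no start site in the table and drops out of both by construction. With the gene body alone the MAFG-cell counts were 1 and 0. With equal peak numbers the GFP-cell counts were 0 and 3. In 3 of 3 libraries the anti-MAFG count in GFP cells was 1, and leaving out a replicate gave 1 to 2. The anti-MITF count in GFP cells was 5 in 3 of 3 libraries, and leaving out a replicate gave 5 to 7. For regions of one line only, a −log10 q of at least 5 took the anti-MAFG count in MAFG cells from 1 to 0. Anti-MITF regions of GFP cells only went from 5 to 1 with equal peak numbers, to 2 with summits within 250 bp, and ranged from 5 to 8 with a replicate left out (8 without GFP-cell replicate 1); the anti-MAFG count ranged from 0 to 2. Overlaps of both antibodies in GFP cells went from 3 to 0 with equal peak numbers and ranged from 1 to 3 with a replicate left out; these alternatives were chosen after seeing the data.

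Same-numbered libraries of the lines had correlations of their deviations from -0.00497 to 0.0256, which gives no pairing. The replicate block asked that every same-numbered pair differ, which is the main rule for one-line regions in other words. Its counts, 0 and 1 for anti-MAFG and 5 and 0 for anti-MITF, were therefore fixed in advance and say nothing about pairing. Summit motif windows were not run. The short lists of MAFG cells limit what an absent peak says.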
